A study of Mus musculus with 6 samples.

Results

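The cytosolic ribosome is built from a large (60S) and a small (40S) subunit, and the genes described here are named for the proteins of both. Members were the mouse gene symbols that start with Rpl or Rps followed by a number, together with Rplp0, Rplp1, Rplp2 and Rpsa, without the S6 kinases and without symbols marked as pseudogenes. This gave 85 of the 24453 gene symbols in the deposited table, 52 of the 60S and 33 of the 40S subunit. For each symbol the transcript with the highest mean level was used. RNA came from regulatory T cells (Treg cells, CD4+ lymphocytes that express the transcription factor Foxp3 and restrain immune responses), isolated by FACS sorting; the mice were healthy C57BL/6 females of unstated age. The control group of 3 libraries has the genotype label WT Tg, and the other group of 3, the transgenic group, the label miR-27 Tg. The series describes the transgene as an excess of miR-27a in Treg cells alone, and its title adds Foxp3cre het. Foxp3 lies on the X chromosome. The sources used here do not give whether the controls carried the Cre allele, nor what WT Tg denotes beyond WT. No label ties single libraries to separate mice, so every p-value measures the spread between these libraries only.

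Each ribosome holds close to equal numbers of most of its proteins, and cells keep that balance by making the mRNAs together and by destroying proteins that do not find a place. In vertebrates many of these mRNAs begin with a C followed by a run of pyrimidines, the 5′ terminal oligopyrimidine (TOP) motif, through which the growth kinase complex mTORC1 and the RNA-binding protein LARP1 control their translation. Activated and dividing T cells make many new ribosomes, and Treg cells depend on mTORC1 for their suppressive function.

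The TOP motif is the sequence feature for which the family is best known. Annotated starts were found for 63 of the 85 members among RefSeq promoters (GRCm38.p6). The 4 example windows hold 15 bases before the annotated start and 15 from it onward on the sense strand, with the run of C and T in capitals; they belong to Rps6 (chr4:86857353-86857382, minus strand), Rpl15 (chr14:18270972-18271001, minus strand), Rpl28 (chr7:4792950-4792979, plus strand) and Rpl18 (chr7:45718056-45718085, plus strand).
Rps6: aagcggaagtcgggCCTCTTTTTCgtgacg
Rpl15: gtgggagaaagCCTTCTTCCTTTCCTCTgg
Rpl28: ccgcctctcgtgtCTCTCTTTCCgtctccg
Rpl18: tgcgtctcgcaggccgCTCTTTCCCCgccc

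A run that began with C within 5 bases of the start and reached at least 8 bases was found in 19 of the 63 members (30.2%). It was found in 4.51% of 12538 promoters of other genes tested and in 2 of 74 promoters (2.70%) of mitochondrial ribosomal proteins, which form a separate ribosome. For each member only the annotated start nearest the deposited one was used, while all annotated starts of other genes were kept. A run of at least 5 bases was in 28 members (44.4%), in 19.7% of the promoters of other genes tested and in 23.0% of those of mitochondrial ribosomal proteins. The median run was 3 bases in each of these sets. Annotated starts can miss the base that cells use, so these counts depend on the annotation. The ETS-factor motif CCGGAAG, searched on both strands of the window from 250 bases before to 50 after the start, was in 23 of 63 members (36.5%), in 17.1% of the promoters of other genes tested and in 33.8% of those of mitochondrial ribosomal proteins. The YY1 motif AAGATGGC, searched likewise, was in 4 members (6.35%), in 4.32% of the promoters of other genes tested and in 12 of 74 promoters of mitochondrial ribosomal proteins (16.2%).

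The start windows of the 3 members whose groups of libraries did not overlap, described below, carried shorter runs. Rps2 (chr17:24720048-24720077, plus strand) had a run of 6 bases and Rpl36a (chrX:134585639-134585668, plus strand) one of 3. Rpl10 (chrX:74270801-74270830, plus strand) had none within 5 bases of its annotated start.
Rps2: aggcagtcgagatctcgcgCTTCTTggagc
Rpl36a: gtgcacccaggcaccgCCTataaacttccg
Rpl10: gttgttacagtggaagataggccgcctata

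The median level of the 19 members with a run of at least 8 bases was 325 RPKM, and that of the other 44 was 243. Both sets spanned low and high members, from 8.87 to 6733 RPKM with a run and up to 10200.5 RPKM without. Their median log2 fold changes between the groups, explained below, were 0.036 and 0.046.

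The microRNA raised in the transgenic cells pairs with 3′ UTRs through its seed, bases 2 to 8, in capitals here as RefSeq gives the mature strand.
miR-27a-3p: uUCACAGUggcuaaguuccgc
The match to this seed, ACTGTGA, was in the annotated 3′ UTR of 2 of the 81 members searched (2.47%), Rpl21 and Rpl27a, each with 1 match. It was in 14.9% of the 12078 other genes tested and searched. The median 3′ UTR length was 92 bases for members and 893 for the others. Rpl21 had a log2 fold change of -0.073 (adjusted p = 0.934 by limma) and Rpl27a one of -0.18 (adjusted p = 0.629), and neither passed the test.

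The deposited unit is RPKM, here the reads per kilobase of transcript for every 10000000 reads counted. The 6 libraries held 34400000 to 42100000 counted reads, summed over all 34711 deposited transcripts. Mir27a, the hairpin of the transgene, had 24.9, 38.4 and 24.7 RPKM in the WT libraries 1 to 3, and 8919, 7448 and 7898 in the transgenic libraries 1 to 3 (adjusted p = 6.05e-07 by limma), so every library matched its label. Foxp3 had 662 to 830 RPKM in WT and 774 to 955 in the transgenic group, and the lowest value of Cd4 was 1864 RPKM. Of 6 markers of Treg and T cells 0 passed the test, with 3 positive and 3 negative log2 fold changes. The lowest was in Ctla4, a Treg checkpoint receptor, at 3436 ± 324 RPKM in WT and 2335 ± 234 in the transgenic group (log2 fold change -0.56, adjusted p = 0.0868 by limma, 0.0472 with quantile normalization) without overlap, followed by Ikzf2 at -0.51 and Cd3e at -0.20. Cd8b1, a chain of the CD8 receptor that Treg cells sorted as CD4+ should lack, had 60.3 to 92.0 RPKM in WT and 92.7 to 169.5 in the transgenic group (adjusted p = 0.258, 0.0274 with the replicate number as a block). The other tested markers of CD8 T and NK cells did not rise with it. Cd8a had 16.2 ± 5.55 RPKM in WT and 16.6 ± 8.63 in the transgenic group (log2 fold change -0.022). Klrb1c had 3.90 to 8.04 RPKM in WT and 1.99 to 2.21 in the transgenic group (log2 fold change -1.05, adjusted p = 0.140 by limma). All 7 markers of myeloid cells were detected in every library. Their log2 fold changes were all positive, from 0.54 in Cd68 to 2.69 in S100a9 (median 1.18). An unadjusted p below 0.05 by limma was found for all 7, against 13.0% of all genes. The summed level of the myeloid markers ranged from 155 to 370 RPKM in WT and from 382 to 927 in the transgenic group, without overlap. Of these markers 1 passed the test, Itgam (CD11b), at 4.41 ± 0.487 and 16.4 ± 0.583 RPKM (SD, n = 3; adjusted p = 0.0118 by limma). That call was lost by leaving out WT replicate 1 (adjusted p = 0.0511), WT replicate 3 (0.0508) or miR-27 Tg replicate 3 (0.0674). Whether RNA of other cells takes part in any difference described for the ribosomal proteins was not tested.

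Ribosomal protein mRNAs were abundant as a class and very uneven as deposited. The median member stood at 325 RPKM, against 64.1 for all genes tested, and 66 members were above that second value. The level reached 1000 RPKM in 30 members and 100 RPKM in 57, while 10 were below 20 RPKM. The 13 members above 3000 RPKM held 69.8% of the summed RPKM of the class, and the 5 highest held 35.6%.

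Rpl8, Rpl4, Rps15 and Rplp1 were among the 5 highest members. Rpl8 (NM_012053, chr15:76904071-76906318), a protein of the core of the large subunit, had 9736, 11624 and 11451 RPKM in WT and 11501, 11563 and 14127 in the transgenic group. The groups overlapped. Rpl4, whose extension reaches into the tunnel for the growing protein, had 9920 ± 1000 and 10481 ± 1364 RPKM (SD, n = 3). Rps15, at the decoding side of the small subunit, had 7508 ± 1056 and 7987 ± 1298 RPKM, and Rplp1, an acidic protein of the stalk that recruits elongation factors, 6873 ± 563 and 7595 ± 1181. The difference between group means was smaller than either SD for Rpl4 and Rps15, and for Rplp1 it lay between the 2 SDs.

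**Figure D1:**
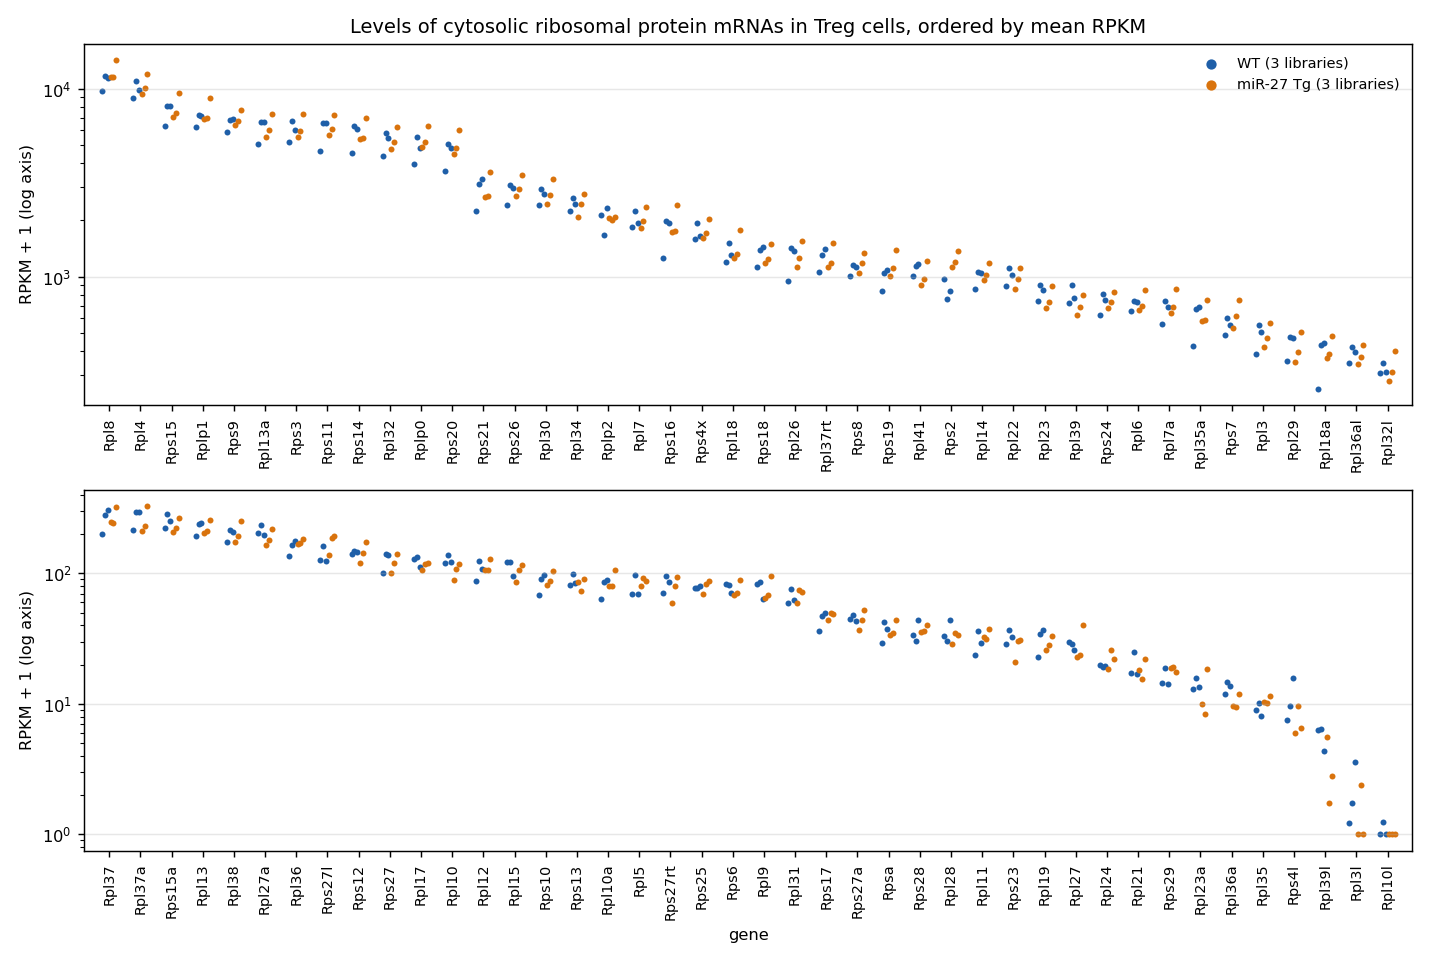
RPKM + 1 (log axis) of 84 of the 85 ribosomal protein genes in the 3 WT (blue) and 3 miR-27 Tg (orange) libraries, ordered by mean level from Rpl8 at top left to Rpl10l at bottom right. Points of the 2 colours lie among each other for most genes, and the levels fall without a break before the low paralogs at the right end.

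At the other end stood genes for proteins that every ribosome carries. Rpl35, a protein at the mouth of the exit tunnel, had 7.996, 9.12 and 7.14 RPKM in WT and 9.42, 9.11 and 10.4 in the transgenic group, on only 12 to 16 reads per library. Rpl23a, its neighbour at the tunnel, had 13.1 ± 1.43 and 11.3 ± 5.35 RPKM, and Rps29, a small zinc-binding protein of the 40S head, had 14.8 ± 2.60 and 17.5 ± 0.786. Reads per library numbered 14 to 33 for Rpl23a and 19 to 27 for Rps29. Once the 9 paralogs described below are set aside, the highest of the 76 remaining members exceeded the lowest 1316-fold.

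Low members shared more of their annotated sequence with other annotated transcripts. For each member, 50-base stretches of its GENCODE transcript were looked up in the transcripts of all other genes of GENCODE M21, processed pseudogenes included. That transcript carries the member's RefSeq accession or symbol, but its length was within 10% of the deposited one in only 62 of the 85 members. Some stretch was shared by 82 of the 85 members, and in 47 members at least 50% of the stretches were shared. In the 10 highest of the 76 members the shared part was 33.5% in the median (range 0 to 60%), and in the 10 lowest it was 71.7% (26.2 to 95.1%). Over the 76 members the level and the shared part had a Spearman correlation of -0.47, and -0.60 with stretches of 100 bases; transcript length and level had one of 0.025. The points share the same 6 libraries. Over the 55 of them matched in length the correlations were -0.45 and -0.58. Rpl8 shared 7.85% and Rpl4 16.5%, while Rpl10 shared 92.1%, Rpl5 93.8% and Rpl36a 85.5%. High levels with much sharing also occurred, as in Rps18 (86.7%, 1312 ± 170 RPKM in WT). The treatment of reads with several positions in the genome was not given in the sources used here. The part of read assignment in these levels was not tested, and the levels of different members should not be read as amounts of mRNA. The shared part had a Spearman correlation of -0.013 with the log2 fold change between the groups.

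**Figure D2:**
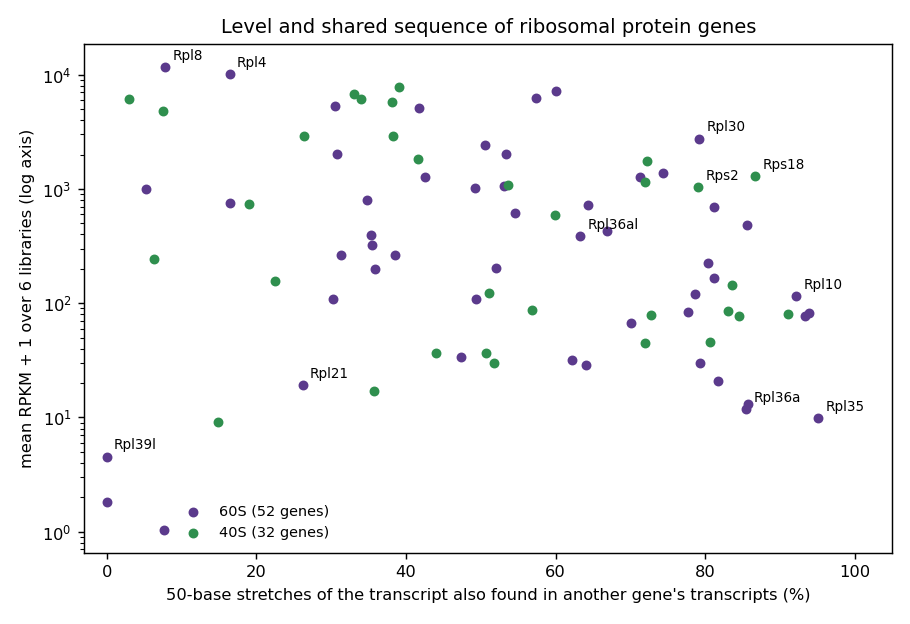
Mean RPKM + 1 over the 6 libraries (log axis) against the percentage of 50-base stretches of each gene's GENCODE transcript that other genes' transcripts also hold, for 52 genes of the 60S (purple) and 32 of the 40S subunit (green). The genes with over 90% of their sequence shared lie at 115 RPKM or lower, while Rpl8 shares 7.85% and Rpl4 16.5%.

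Pseudogene rows of the table carried reads as well. Rpl14-ps1 had 3564 ± 231 RPKM in WT and 3608 ± 425 in the transgenic group, while Rpl14 itself had 984 ± 110 and 1052 ± 121. Of the 7 pseudogene rows that were tested 0 passed the test, and the log2 fold changes ran from -0.33 in Rps15a-ps4 to 0.50 in Rpl31-ps12 (median 0.088). Rpl31-ps12 was near the filter, with 0 to 1.48 RPKM in WT and 0.604 to 2.18 in the transgenic group, and the groups overlapped. Exons of other annotated genes covered over 20% of the GENCODE transcript in 7 of the 62 members matched in length. Rpl23a shared 55.4% of its bases with Tlcd1 and Rpl5 46.6% with Fam69a. Both strands were counted, so reads of such partners cannot be told apart.

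The comparison of miR-27 Tg with WT asked whether the excess of miR-27 came with other levels of ribosomal protein mRNAs. No member passed the test. Among 83 members with a mean of at least 1 RPKM, 0 had an adjusted p below 0.05 by limma, against 140 of all 13621 genes tested (1.03%; 51 higher and 89 lower). An unadjusted p below 0.05 was found for 2 members, Rps2 and Rpl10, against 13.0% of all genes. The groups of 3 libraries did not overlap for 3 members, Rps2, Rpl10 and Rpl36a, against 18.5% of all genes. The 2 members not tested were Rpl3l and Rpl10l. Leaving out single libraries moved the count over all genes to 11, 65 and 5 without WT replicates 1, 2 and 3 and to 55, 56 and 5 without miR-27 Tg replicates 1, 2 and 3, and the count of members stayed at 0 in each case.

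The differences were small as well as short of the threshold. Fold changes are of RPKM + 1, which understates those of genes near 1 RPKM. The median log2 fold change was 0.043 over the 83 members and -0.013 over all genes tested. It was 0.027 over 50 members of the 60S and 0.064 over 33 members of the 40S subunit. Of the 83 members, 71 lay within 0.2 of zero. The 95% interval of the log2 fold change stayed within a 1.5-fold change in either direction for 71 members and within 2-fold for 81. With 3 libraries per group, a change inside such an interval cannot be told from none. A positive log2 fold change was found for 52 of 83 members (62.7%), against 47.1% of all genes. That direction rested on single libraries: 26 members were positive without WT replicate 1, where the median was -0.055, and 29 without miR-27 Tg replicate 3, where it was -0.068.

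**Figure D3:**
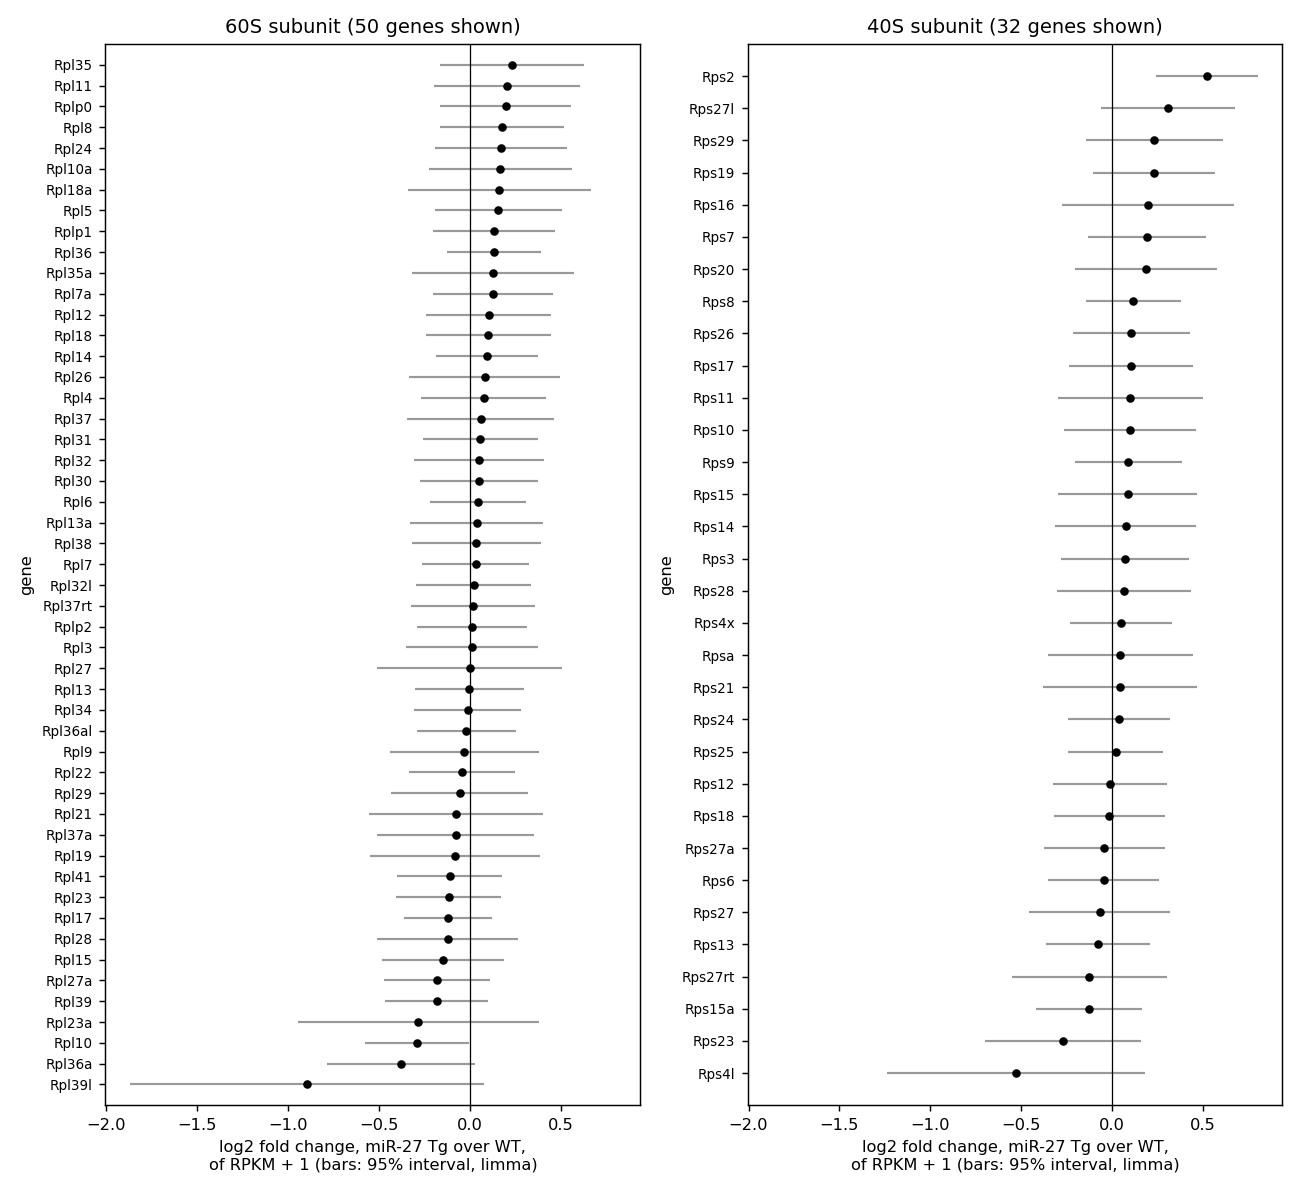
Log2 fold change of RPKM + 1 (miR-27 Tg over WT, points) with its 95% interval from limma (bars) for 50 genes of the 60S and 32 of the 40S subunit. Most intervals cross zero; those of Rps2 (from 0.24) and, barely, Rpl10 (up to -0.0010) do not.

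Rps2 had the lowest p of the class. It encodes a protein at the entry of the mRNA channel of the small subunit (NM_008503, chr17:24720063-24721927). It had 974, 756 and 835 RPKM in the WT libraries, in the order of their replicate numbers, and 1118, 1197 and 1363 in the transgenic ones. All 3 transgenic libraries stood above all 3 WT libraries. The group means were 855 ± 110 and 1226 ± 125 RPKM, a log2 fold change of 0.52 (SE 0.12, adjusted p = 0.110 by limma), so it did not pass the test. The adjusted p lay between 0.0623 with array weights and 0.276 without miR-27 Tg replicate 3. WT replicate 1, in which most ribosomal proteins were at their lowest, had the highest Rps2 of the WT group. With each library's median deviation over members subtracted, Rps2 stood at 0.14, -0.55 and -0.32 (log2) in WT and 0.27, 0.26 and 0.18 in the transgenic group, so the groups stayed apart, with WT replicate 1 close to the transgenic libraries. As a ratio to the median RPKM of the other members, for which the median gene can differ between libraries, WT replicate 1 at 3.48 lay above miR-27 Tg replicate 3 at 3.27. Other transcripts held 79.0% of its 50-base stretches, among them transcripts of 71 pseudogenes.

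Rpl10 and Rpl36a, both on the X chromosome, were lower in every transgenic library. The other members on that chromosome, Rps4x and Rpl39, had log2 fold changes of 0.050 and -0.18, with overlapping groups. Rpl10, a late-joining protein of the 60S subunit near the tRNA sites (chrX:74270816-74273135), had 119.8, 136 and 122 RPKM in WT and 87.5, 106 and 117 in the transgenic group. The groups were separated by a few RPKM between WT replicate 1 and miR-27 Tg replicate 3. Its log2 fold change was -0.29 (SE 0.12, adjusted p = 0.382 by limma). Rpl36a, a protein at the site from which tRNAs leave the 60S subunit (chrX:134585654-134588062), had 10.9, 13.7 and 12.7 RPKM in WT and 8.72, 8.43 and 10.8 in the transgenic group, on 14 to 26 reads per library. The lowest WT and the highest transgenic library nearly met, and the log2 fold change of -0.38 had an adjusted p of 0.427.

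The other members named for large differences also failed the test. Rpl23a had a log2 fold change of -0.28 (adjusted p = 0.762), with 7.37 to 17.4 RPKM in the transgenic group alone, and Rps23, a protein of the decoding centre, one of -0.27 (adjusted p = 0.625). On the positive side, Rps29 had 0.23, Rpl35 0.23, Rps19 0.23 and Rpl11 0.20, with adjusted p between 0.590 and 0.708. Libraries of the groups overlapped for each of these 6 genes.

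**Figure D4:**
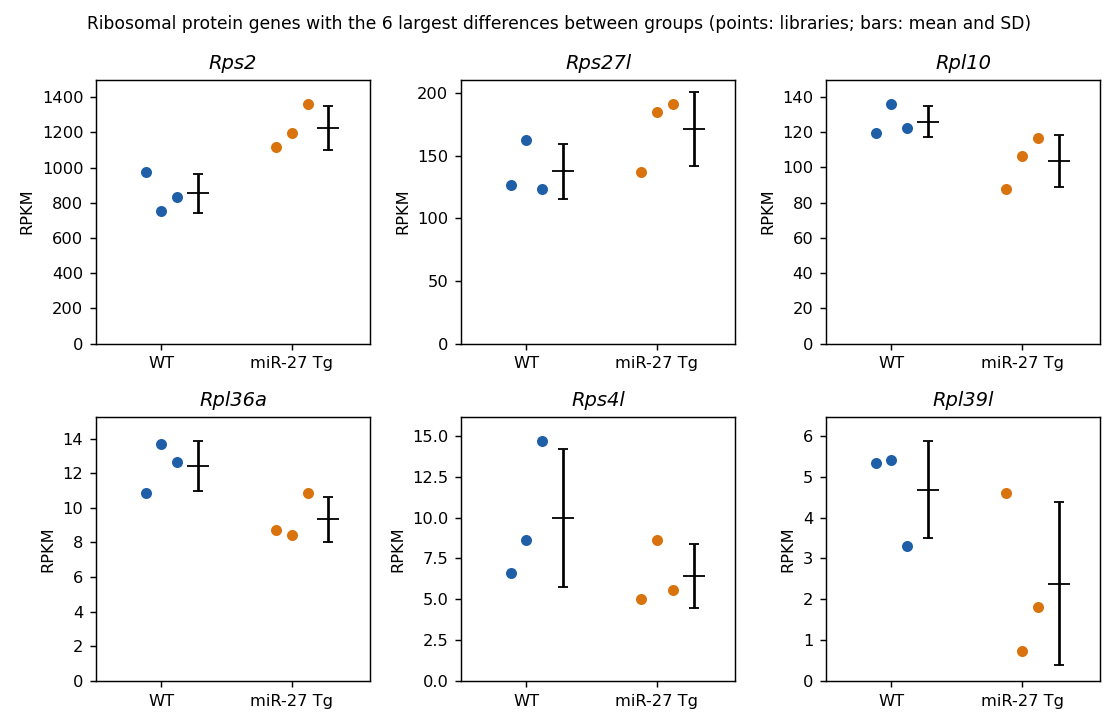
RPKM of the 6 ribosomal protein genes with the largest log2 fold changes in either direction, by library (points) with group mean and SD (bars). The groups are apart for Rps2, Rpl10 and Rpl36a and overlap for Rps27l, Rps4l and Rpl39l.

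By place in the ribosome, no group of members held a call. The P stalk and its base recruit translation factors to the 60S subunit: Rplp0, which anchors the stalk, had 3991, 5495 and 4836 RPKM in WT and 4901, 5177 and 6304 in the transgenic group (log2 fold change 0.20), and the stalk protein Rplp2 had 2128, 1663 and 2325 RPKM in WT and 2042, 2005 and 2068 in the transgenic group (0.013). The groups overlapped for both, and Rplp2 was the steadier in the transgenic group. Rplp2 also went its own way among the WT libraries, being lowest in replicate 2, where most members were highest. Over the 4 stalk genes the median was 0.12.

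Rpl5 and Rpl11 form, with 5S rRNA, the particle that can bind the p53 inhibitor Mdm2 when ribosome assembly is disturbed. Rpl5 had 68.0, 95.9 and 68.0 RPKM in WT and 78.4, 91.3 and 86.4 in the transgenic group. Rpl11 had 22.7, 35.1 and 28.1 RPKM in WT and 31.8, 30.2 and 36.2 in the transgenic group. WT replicate 2 lay within the transgenic range or above it for both, and their log2 fold changes of 0.16 and 0.20 had adjusted p of 0.744 and 0.708.

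Around the exit of the peptide tunnel, where chaperones dock, the median of 9 members was -0.043. Rpl22, a member with a known role in T cell development, had 1008 ± 107 RPKM in WT and 981 ± 130 in the transgenic group. At the decoding centre and mRNA entry (4 members, median 0.079), Rps3 had 5967 ± 759 and 6283 ± 951 RPKM beside the values of Rps2 given above. At the exit side of the mRNA channel (5 members, median 0.064), Rpsa, also known as a laminin receptor, had 28.5, 41.4 and 36.4 RPKM in WT and 32.9, 33.7 and 42.8 in the transgenic group; Rps26 had the highest log2 fold change of that group, 0.11.

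Several members have known roles outside the ribosome. Rps6, the substrate of S6 kinases used as a readout of mTORC1, had 82.3, 80.8 and 69.8 RPKM in WT and 67.8, 70.3 and 88.4 in the transgenic group, with overlapping groups (log2 fold change -0.046, adjusted p = 0.934). Rps27a, which is made as a fusion to ubiquitin, had 43.5, 47.1 and 42.4 RPKM in WT and 36.1, 43.2 and 51.0 in the transgenic group. Rpl13a, known for silencing inflammatory transcripts after phosphorylation, had 6137 ± 904 and 6293 ± 897 RPKM. Rps19, the gene most often mutated in Diamond-Blackfan anaemia, an inherited failure of red cell production, had 843, 1041 and 1085 RPKM in WT and 1012, 1104 and 1383 in the transgenic group. Of 19 members mutated in that disease 0 passed the test and 15 had a positive log2 fold change (9 without WT replicate 1), from -0.15 in Rpl15 to 0.23 in Rps29 (median 0.10).

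Paralogs are second genes for the same ribosomal position, often used in particular tissues. In most pairs the partner had the higher RPKM. As for all members, read assignment limits such comparisons, and the folds below are of deposited RPKM, not of amounts of mRNA. Rpl39, which lines the tunnel, had 798 ± 91.3 RPKM in WT and 704 ± 89.1 in the transgenic group, 213-fold above Rpl39l by the mean over all libraries. Rpl39l, a form known from testis, had 5.35, 5.40 and 3.32 RPKM in WT and 4.60, 0.726 and 1.81 in the transgenic group, on 2 to 18 reads per library. Its log2 fold change of -0.90 was the most negative of the class, the groups overlapped, and the adjusted p was 0.431.

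Rps4x on the X chromosome exceeded Rps4l 213-fold. Rps4l is annotated as a pseudogene in the deposited table, although its symbol does not say so. Rps4l had 6.58, 8.65 and 14.7 RPKM in WT and 5.03, 8.65 and 5.56 in the transgenic group, again overlapping (log2 fold change -0.53, adjusted p = 0.554). Rpl3 had 482 ± 85.0 and 485 ± 73.3 RPKM, while its muscle form Rpl3l had 0.231, 0.740 and 2.58 RPKM in WT and 0, 1.41 and 0 in the transgenic group, at most 10 reads. Rpl10l, the testis form of Rpl10, had 1 read in WT replicate 2 and 0 in the other libraries.

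Other pairs were closer or ran the other way. Rps27l, a known p53 target, had 127, 163 and 123 RPKM in WT and 137, 185 and 191 in the transgenic group, beside 99.5, 139.8 and 137 in WT and 99.8, 119 and 139 in the transgenic group for Rps27. Rps27l had a log2 fold change of 0.31 (SE 0.16, adjusted p = 0.479) with WT replicate 2 inside the transgenic range, and Rps27 one of -0.068. Rpl36al stood at 387 ± 39.2 and 383 ± 46.5 RPKM, 35.4-fold above Rpl36a, and Rpl37rt at 1257 ± 184 and 1273 ± 203 RPKM, 4.76-fold above Rpl37. Rpl32 exceeded Rpl32l 16.4-fold. In the deposited coordinates Rps27rt lies on the same stretch of chromosome 3 as Rps27, so the reads of these 2 may not have been told apart. Outside the symbol rule, Rpl22l1 had a log2 fold change of -0.17, at 802 ± 90.9 and 717 ± 120 RPKM, and Rpl7l1 one of 0.22; neither passed the test.

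The libraries differed by a shift that most, but not all, members followed. Each library's median deviation of members from their own mean over 6 libraries was -0.21, 0.12 and 0.036 (log2) in the WT libraries 1 to 3, and -0.14, -0.024 and 0.24 in the transgenic libraries 1 to 3. The same medians over all genes tested ran only from -0.069 to 0.066. Within WT, replicate 1 was the lowest library for 64 of 83 members, and within miR-27 Tg, replicate 3 was the highest for 75 and replicate 1 the lowest for 71. Out of all 6 libraries, miR-27 Tg replicate 3 was the highest for 59 members, while it was the highest for 18.1% of all genes tested. The spread of these shifts within each group exceeded the difference between the groups.

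Most members also moved with each other closely. The median SD of a member within its groups was 0.207 on the log2 scale, against 0.178 for all genes tested and 0.139 for those of at least 100 RPKM. After each library's median over members was subtracted it was 0.0939, and 71 of 83 members had a smaller SD. The subtracted median came from the members themselves, so a smaller SD among members was partly built in. That relative scale was chosen after the values were seen and was not tested. On it the groups did not overlap for 20 of 83 members, 9 higher and 11 lower in the transgenic group. The share over all genes was 15.7% after the same subtraction and 18.5% before it. For other genes the subtracted shift was not their own, so the shares of members and of all genes are not alike. The relative differences ran from -0.42 in Rpl36a and -0.33 in Rpl10 to 0.27 in Rps27l and 0.48 in Rps2. Rpl8, whose groups overlapped as deposited, had -0.045, -0.12 and -0.054 in WT and 0.13, 0.019 and 0.049 in the transgenic group. Exceptions to the shift included Rps2 and Rplp2, described above, but were not limited to them. In WT replicate 1 the relative values of Rpl15, Rpl9, Rpl17 and Rps6 were 0.39, 0.33, 0.33 and 0.32, above the 0.14 of Rps2.

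**Figure D5:**
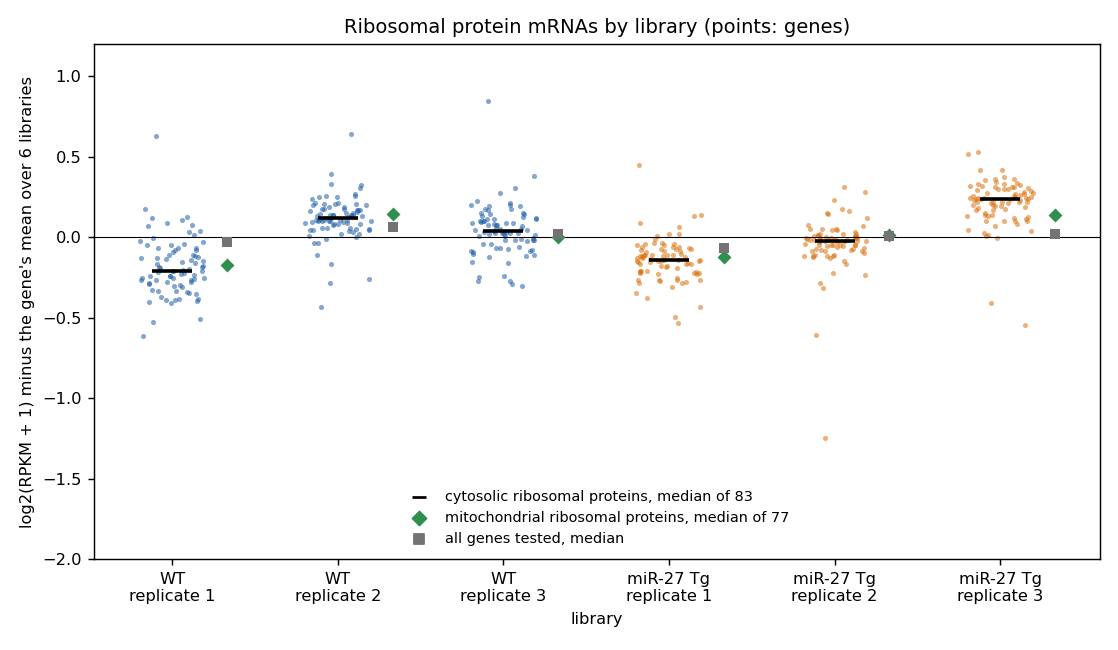
Deviation of log2(RPKM + 1) from the gene's mean over 6 libraries for 82 ribosomal protein genes (points; WT blue, miR-27 Tg orange), with the median of all 83 tested (black bar), of 77 mitochondrial ribosomal proteins (green diamond) and of all genes tested (grey square). The black bars run from -0.21 in WT replicate 1 to 0.24 in miR-27 Tg replicate 3, and the grey squares lie between -0.069 and 0.066.

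Summed over members, the class took 0.933%, 1.18% and 1.12% of the counted reads in WT and 1.02%, 1.09% and 1.32% in the transgenic group. These percentages set 1 transcript per member against the reads summed over all 34711 deposited transcripts. A read in exons of several transcripts may count for each, so the percentages are not shares of sequenced reads. The groups overlapped, with means of 1.08 ± 0.129% and 1.14 ± 0.157% (SD, n = 3). In bulk RNA a lower share can reflect fewer mRNAs per cell or fewer cells that hold them, and these cannot be told apart. The reads of 60S members over those of 40S members were 1.29, 1.24 and 1.22 in WT and 1.26, 1.26 and 1.24 in the transgenic group, so this proportion lay between 1.22 and 1.29 in all 6 libraries while the class shifted.

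Genes around the ribosome were read from the same fit, and 0 passed the test in each of the lists that follow. Of all genes tested 47.1% had a positive log2 fold change. Of 14 TOP mRNAs that encode no ribosomal protein 10 had a positive log2 fold change (median 0.047), from -0.14 in the histone chaperone Nap1l1 to 0.26 in Tpt1, a growth-related TOP transcript. Of 31 translation initiation factors 22 were positive (median 0.053). That count was 16 without miR-27 Tg replicate 3, 17 without WT replicate 1, and at most 24 when 1 library was left out. The factors ran from -0.23 in Eif5, the GTPase activator of start codon selection, to 0.21 in Eif2b2, a subunit of the exchange factor eIF2B. Adjusted p was 0.328 for Eif5 and 0.350 for Eif2b2, whose groups did not overlap.

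Of 55 ribosome assembly factors 43 were positive (median 0.060), and 29 to 48 when 1 library was left out. Rrs1, needed for maturation of the 60S subunit, had the highest, 0.25 (78.0 to 88.3 RPKM in WT and 95.3 to 101.2 in the transgenic group, adjusted p = 0.304), and Nop10, a part of the pseudouridylation complex, the lowest, -0.32. Host genes of small nucleolar RNAs, which guide rRNA modification and whose transcripts are often TOP mRNAs, were mostly negative, 11 of 12 (median -0.17), and 9 to 12 of them were negative when 1 library was left out. They ran from -0.34 in Snhg8 (579 ± 43.6 and 462 ± 83.3 RPKM, adjusted p = 0.331) to 0.079 in Snhg20. The median of 13 genes of the RNA polymerase I machinery, which transcribes rRNA, was 0.00078, with Ubtf at 0.17 and Rrn3 at -0.12.

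Among 17 regulators of TOP translation and ribosome synthesis (mTORC1, LARP1 and MYC) the median was 0.0020, from -0.22 in Eif4ebp1 to 0.30 in Deptor. Deptor was near the filter, at 1.17 ± 0.0952 RPKM in WT and 1.67 ± 0.252 in the transgenic group. Mtor itself had 67.1 ± 7.01 and 69.8 ± 8.11 RPKM, and Myc 337 ± 52.4 and 310 ± 41.2. Of 9 tested genes of p53 and its targets, which respond when ribosome assembly fails, Phlda3 had 0.91 (adjusted p = 0.139) and Ccng1 -0.42 (adjusted p = 0.164), and Rps27l is described above. Of 77 mitochondrial ribosomal proteins 49 were positive (median 0.032), from -0.25 in Mrpl36 to 0.27 in Mrpl43.

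The library shift was not limited to members. The median deviation was -0.17 in WT replicate 1 and 0.14 in miR-27 Tg replicate 3 for mitochondrial ribosomal proteins, and -0.16 and 0.16 for assembly factors. For the regulators of translation it was 0.097, -0.094 and 0.024 in the WT libraries 1 to 3 and 0.013, 0.013 and -0.015 in the transgenic ones. The summed myeloid markers had 277, 155 and 370 RPKM in WT and 382, 927 and 609 in the transgenic group, and their part in the shift was not tested. Whether RNA quality or the growth state of the sorted cells moved with the shift was not tested.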

How the data were processed

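The authors deposited 1 table with a column of RPKM values for each of the 6 libraries. Per the file headers, HOMER took reads from exons of RefSeq transcripts, from both strands, and scaled each library to 10000000 reads. The submitters' processing notes name STAR 2.2.0c, HOMER, mm10 and GRCm38. Total RNA with small RNAs was made into TruSeq libraries for Illumina sequencing, per the labels' protocols. Low values were whole multiples of 1 read within 0.1 (100% of those checked), which gave the depth of each library; intervals cover the spread between libraries, and read numbers limit the genes of few reads.

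Of the deposited values 1 transcript per symbol was used. All 13621 genes whose mean RPKM reached 1 entered limma 3.58.1 (R 4.3.3) as log2(RPKM + 1) (limma-trend, two-sided, Benjamini-Hochberg adjustment over all genes tested, threshold 0.05), without a replicate block. The script was tested on simulated data. The members, gene lists and the rule for named genes (largest fold changes, highest and lowest levels, paralogs with their partners and some members with known roles; in other lists the highest and lowest fold change) were chosen with earlier results of these data known. Rpl14, Rpl14-ps1, Rpl21, Rpl27a, Rps3, Rps18, Cd3e, Cd8a, Ikzf2, Mtor and Myc fall outside that rule and were chosen after their values were seen. No set test was run. Sequences came from RefSeq (GRCm38.p6) and GENCODE M21; 83 members were matched to GENCODE by accession and 2 by symbol. Alternatives varied the pseudocount, filter, trend, weights, scaling, choice of transcript, replicate block and libraries. Protein sequences were not analysed here, and 1 member enters the counts and medians but is not reported by itself.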

Additional observations from a re-analysis of the deposited data

How the results depend on the processing

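With 3 libraries per group, the count of members past the threshold was 0 in every alternative tried, while unadjusted p below 0.05 was found for 1 to 5 members by limma. Genes past the threshold over the whole table numbered 140, and 47 with no filter on low values, 225 with array weights, 276 with the replicate block and 5 to 65 without 1 library. The replicate block changed no call among the members (adjusted p of Rps2 0.0944). Deviations of same-numbered libraries correlated at 0.368, 0.0971 and 0.0368 for replicates 1, 2 and 3. Pairs of unlike number correlated at -0.222 to 0.154, and not every library correlated best with its own number. Whether equal numbers mark a shared source or batch was not tested. The median log2 fold change of members was -0.068 to 0.12 without 1 library, members with a positive one numbered 26 to 67, and the difference in summed share (miR-27 Tg minus WT) was -0.024 to 0.12 percentage points.

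Several small log2 fold changes changed sign, none past the threshold. With array weights Rpl37rt had -0.047, Rpl37 -0.034 and Rplp2 -0.079. With median ratio scaling Rpl36al had 0.015 and Rps18 0.019. With quantile normalization Rpl37rt had -0.013, Rpl32 -0.046, Rps27a 0.0093, Rpl13a -0.035 and Rpl14-ps1 -0.070. Without 1 library the ranges that crossed zero were -0.025 to 0.15 for Rpl4, -0.042 to 0.17 for Rps15, -0.14 to 0.12 for Rpl3, -0.069 to 0.14 for Rpl32, -0.13 to 0.14 for Rpl32l, -0.12 to 0.18 for Rpl37, -0.11 to 0.11 for Rpl37rt, -0.048 to 0.13 for Rps4x, -0.13 to 0.12 for Rplp2, -0.099 to 0.16 for Rpsa, -0.091 to 0.13 for Rpl13a, -0.14 to 0.053 for Rpl22, -0.11 to 0.057 for Rpl36al, -0.22 to 0.053 for Rps27, -0.16 to 0.081 for Rps27a, -0.27 to 0.061 for Rps27rt, -0.16 to 0.025 for Rps6, -0.0014 to 0.19 for Rps26, -0.20 to 0.11 for Rpl21, -0.12 to 0.055 for Rps18, -0.047 to 0.16 for Rps3, -0.077 to 0.090 for Rpl14-ps1, -0.030 to 0.13 for Mtor and -0.12 to 0.23 for Snhg20. The cause was not tested. Members on under 30 reads per library, such as Rpl35, Rps29, Rpl36a and Rpl39l, are limited by counting error.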
